A study of Rattus norvegicus with 30 samples.

Results

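Conjugation enzymes attach a small polar group to drugs, hormones, bile acids and reactive metabolites, and the genes of 4 such families were followed here in rat hepatocytes exposed to sodium valproate. A gene was a member when its platform symbol began with Gst plus a class letter (a, k, m, o, p, t or z), or with Mgst, Ugt1, Ugt2, Sult, or Nat plus a digit, on a probeset that carried no other symbol. This gave 56 of the 14217 genes with such a probeset, namely 23 of glutathione conjugation, 8 of glucuronide conjugation, 14 of sulfate conjugation and 11 acetyltransferases. A filter on low signal kept 50 of them. Those under it were Gsta3l1, Gstm6l, Sult1d1, Sult2a1, Sult2a2 and Nat8f5, for which no change is given. The Ugt1 genes share most of their transcript, and their probesets on this array list several symbols, so no Ugt1 gene is among the members and the glucuronide family is Ugt2 alone.

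Glutathione transferases join the tripeptide glutathione to electrophiles, and the membrane-bound Mgst enzymes do the same within membranes. UDP-glucuronosyltransferases add glucuronic acid to drugs, steroids and bile acids, and glucuronides are a main form in which valproate itself is cleared. Sulfotransferases transfer sulfate from the donor PAPS to phenols, steroids and bile acids. Arylamine acetyltransferases (Nat1 and Nat2) acetylate aromatic amines, and Nat8 completes mercapturic acids, the excreted form of glutathione conjugates. Hepatocytes are rich in all of these, and their transcripts are known to respond to the receptors CAR, PXR and AhR and to the factor Nrf2. The symbol rule also takes in Nat10, an RNA acetyltransferase, and Nat8l, which makes N-acetylaspartate.

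The cells were male Sprague Dawley rat hepatocytes bought frozen, grown on collagen with a layer of Matrigel, and dosed on day 3. The 30 cultures fall into 6 groups of 5, with water as the vehicle, 0.5 mM valproate and 10 mM valproate, each harvested at 24 h and at 48 h. Each culture was 1 well and gave 1 single-colour array. The number of donor animals and the layout of plates were not known here. The p-values therefore reflect only how far these cultures differed among themselves.

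Signal is the array intensity of a probeset on a linear scale, and changes are given as differences of mean log2(signal + 16) each ± the fit's standard error (SE), from 5 cultures per group. A gene was called changed at a limma p-value under 0.05 after Benjamini-Hochberg adjustment over all 21729 probesets tested, in a two-sided test. The number of arrays limits the precision, and signals of different probesets are not compared with each other, though the marker sums below add them. The median correlation of 2 arrays of one group, taken across probesets, was 0.969. Of 8 hepatocyte markers 7 had a probeset and all 7 passed the filter, with a summed signal from 421059 to 552056 in water at 24 h and from 375607 to 461793 with 10 mM. At 10 mM and 24 h, 4 of these 7 were lower (Apoa1, Ttr, Serpina1 and Cps1, from -0.39 to -0.16) and 0 higher, and at 48 h 2 were lower and 1 higher. Some markers of other cell types were called at 10 mM too. Over all probesets tested, 48.2% were called at 24 h and 41.8% at 48 h. The shares called among the stellate, endothelial and lymphocyte markers below were under these. Of 8 macrophage markers 7 had a probeset, and Adgre1 and Cd163 were below the filter. At 24 h, 3 of the 5 tested were lower (Cd14 at -2.06, Clec4f at -0.60 and Lyz2 at -0.28). Of these 5, 0 were higher, and Csf1r (-0.58) and Cd68 (0.40) were not called. The summed signal was 26738 to 30612 in water and 11530 to 13128 with 10 mM. This sum mostly reflects the strong probesets of Cd14 and Lyz2 (mean log2 values of 13.49 and 12.73). At 48 h the same 3 were lower (Cd14 at -1.97, Clec4f at -0.68 and Lyz2 at -0.58). The sums were then 23379 to 26147 in water and 9392 to 14411 with 10 mM. Of 6 stellate cell and fibroblast markers tested, 2 were lower at both times (Acta2 at -0.90 and -1.06, Col3a1 at -0.73 and -0.79), with sums of 3742 to 4323 in water and 2773 to 3243 with 10 mM at 24 h. The 1 bile duct marker tested, Epcam, was lower at both times (-0.23 and -1.03), with list sums of 10473 to 12229 and 5046 to 6635 at 48 h. Of 5 endothelial markers 1 was lower at 24 h (Lyve1, -1.06) and 1 higher at 48 h (Eng, 0.48), and of 3 lymphocyte markers 1 was higher at 24 h (Cd3g, 1.06). The part of all these in the results below was not tested. In bulk RNA of this kind, fewer cells of a type and less RNA per cell cannot be told apart. The log2 ratio of 3' to 5' actin signal, which is higher in broken RNA, lay between 1.05 and 2.77 and exceeded 2 in 3 cultures, water at 24 h replicate 3 and 0.5 mM at 48 h replicates 3 and 4.

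Promoters of 4 glutathione transferase genes are shown because these genes moved in different directions at 10 mM. Gsta3 fell, Gstm7 and Gstp1 rose, and Gstp3, a neighbour of Gstp1 on chromosome 1, rose at 48 h. The sequences are from RefSeq on the build GRCr8, each 300 bases long from 250 bases before the transcript start to 50 after, written 5′ to 3′ on the strand of the gene. They lie at chr9:31154739-31155038 on the plus strand for Gsta3, and on the minus strand at chr2:198260270-198260569 for Gstm7, chr1:210769656-210769955 for Gstp1 and chr1:210787635-210787934 for Gstp3. Capitals mark the core letters of the antioxidant response element, TGACNNNGC, the kind of site that Nrf2 binds.
Gsta3: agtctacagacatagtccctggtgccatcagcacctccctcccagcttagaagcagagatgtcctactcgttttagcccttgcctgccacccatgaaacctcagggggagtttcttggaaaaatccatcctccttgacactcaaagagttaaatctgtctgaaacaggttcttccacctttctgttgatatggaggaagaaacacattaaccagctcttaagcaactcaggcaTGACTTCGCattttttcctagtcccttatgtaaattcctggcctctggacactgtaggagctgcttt
Gstm7: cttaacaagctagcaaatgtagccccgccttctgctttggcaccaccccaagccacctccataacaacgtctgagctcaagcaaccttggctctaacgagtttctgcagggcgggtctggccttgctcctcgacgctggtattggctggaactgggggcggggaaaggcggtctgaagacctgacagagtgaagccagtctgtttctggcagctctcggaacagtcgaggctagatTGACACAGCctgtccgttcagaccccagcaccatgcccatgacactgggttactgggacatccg
Gstp1: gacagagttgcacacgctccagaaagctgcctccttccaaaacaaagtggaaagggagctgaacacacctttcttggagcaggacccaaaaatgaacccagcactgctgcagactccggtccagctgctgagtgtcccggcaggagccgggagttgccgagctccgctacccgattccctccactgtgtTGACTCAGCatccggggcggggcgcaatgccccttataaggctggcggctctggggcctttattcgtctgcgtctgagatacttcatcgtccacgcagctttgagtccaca
Gstp3: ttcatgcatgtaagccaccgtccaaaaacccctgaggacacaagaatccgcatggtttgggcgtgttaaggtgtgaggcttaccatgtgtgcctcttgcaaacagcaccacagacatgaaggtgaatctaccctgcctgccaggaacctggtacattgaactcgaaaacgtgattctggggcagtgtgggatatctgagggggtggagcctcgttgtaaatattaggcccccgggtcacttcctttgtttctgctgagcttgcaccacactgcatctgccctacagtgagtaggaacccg
The core begins at position -17 from the start in Gsta3, at -14 in Gstm7 and at -61 in Gstp1, and these letters are not in the window of Gstp3. Promoters were found for 46 of the 56 members, and 8 of these held the core on either strand (Gsta1, Gsta3, Gstm5, Gstm7, Gstp1, Gstz1, Nat8 and Nat8b), against 12.1% of 33469 rat promoters of the same length. The 8 genes did not move in one direction at 10 mM, as the values below show. The HNF1 motif GTTAAT, searched on both strands, was in 5 of the 46 (Gsta1, Gsta3, Ugt2b10, Sult2a2 and Sult2a6) and in 7.45% of all promoters. A match of letters is a description and not a binding site.

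The first comparison asked how the 4 families differed at the high dose. At 10 mM and 24 h, 28 of the 50 members fell and 9 rose, with a median change of -0.37, in a comparison where 48.2% of all probesets tested were called, 28% higher and 20.2% lower, and the median of all was 0.10. At 48 h, 26 fell and 10 rose with a median of -0.26, where 41.8% of all probesets were called, 23.9% higher and 17.9% lower, and the median of all was 0.04. The values of 31 members did not overlap between 10 mM and water at 24 h and those of 32 at 48 h, where this held for 38.3% and 35% of all probesets. The share called among members thus lay above that of all probesets. Falls outnumbered rises among members where rises outnumbered falls among all probesets. Centred on ribosomal protein genes, which moves the median of all probesets at 48 h to 0.24, the split at 48 h was 22 lower and 15 higher. Members tend to have strong signal, and strong probesets as a whole were called more often than all probesets and leaned downward. Of 1843 probesets with a mean log2 value of 13 or more, 46.4% were lower and 24.9% higher at 24 h, and of the 20 members among them 15 were lower and 2 higher. Across both times, 25 members fell at both, 6 rose at both, and Sult1e1 fell at 24 h and rose at 48 h.

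The sulfate family had the lowest medians. At 24 h, 8 of 11 fell and 2 rose with a median of -1.26, and at 48 h 7 fell and 3 rose with a median of -0.69. Of the 8 glucuronosyltransferases, 6 fell at 24 h and 5 at 48 h, none rose, and the medians were -0.44 and -0.41. Of the 21 glutathione transferases, 11 fell and 4 rose at 24 h and 12 fell and 5 rose at 48 h, with medians of -0.27 and -0.22. The 10 acetyltransferases divided evenly, with 3 higher and 3 lower at 24 h (median 0.31) and 2 and 2 at 48 h (median 0.06). Their share called was 60% at 24 h, beside 48.2% of all probesets. At 48 h it was 40%, near the 41.8% of all probesets. Centred on ribosomal protein genes, the medians at 24 h were -1.17 for sulfate, -0.35 for glucuronide, -0.18 for glutathione and 0.40 for acetyl, and at 48 h they were -0.48, -0.20, -0.01 and 0.27, beside medians of all probesets of 0.19 and 0.24.

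Values by culture were compared as well. Taking for each culture the median over a family's genes of the difference from the mean of water at 24 h, the sulfate family lay between -0.11 and 0.23 in water at 24 h and between -1.34 and -0.96 with 10 mM. At 48 h it lay between -0.01 and 0.12 in water and between -0.81 and -0.40 with 10 mM. The 5 cultures of 10 mM thus lay below all water cultures at both times. In replicate 2 of 10 mM at 48 h the sulfate median (-0.40) was not below the glucuronide one (-0.42). The glucuronide family lay between -0.69 and -0.38 with 10 mM at 24 h and between -0.50 and -0.26 at 48 h, and the glutathione family between -0.29 and -0.15 and between -0.25 and -0.12, all below their water cultures as well. The acetyl family lay between 0.10 and 0.40 at 24 h, above its water cultures (-0.11 to 0.09), and at 48 h it overlapped them.

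**Figure D1:**
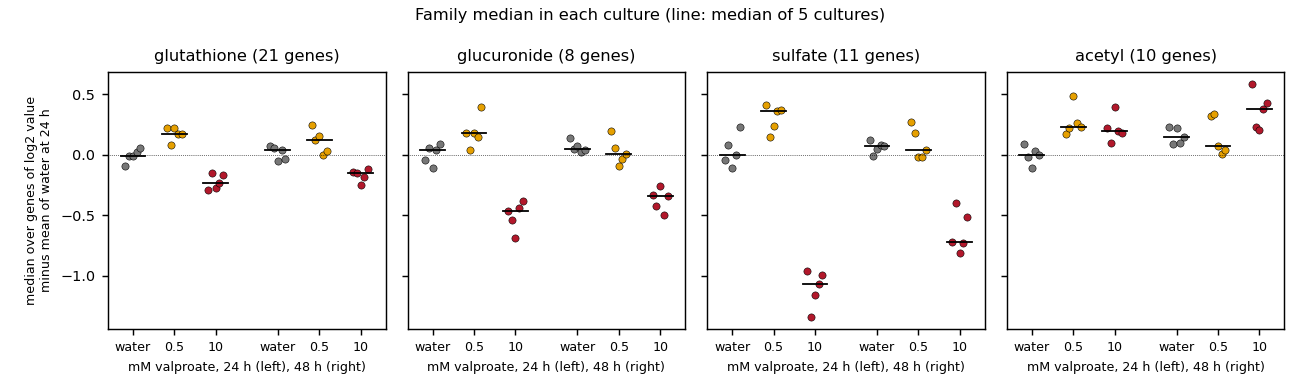
For each of the 4 families, each point is 1 culture and shows the median over the family's tested genes of log2(signal + 16) minus the mean of water at 24 h. Grey is water, orange 0.5 mM and red 10 mM, and lines are medians of 5 cultures. The red points of the sulfate family lie between -1.34 and -0.96 at 24 h and between -0.81 and -0.40 at 48 h, below every water culture.

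Among sulfotransferases, read from the brightest probeset of each gene, the largest fall at 10 mM was that of Sult6b2, a member of a little-studied subfamily. Its signal was 6887, 6069, 6740, 7068 and 6457 in water at 24 h and 747, 596, 827, 796 and 956 with 10 mM, and the groups did not overlap. The values at 48 h were 7082, 6541, 5668, 6663 and 5924 in water and 1095, 2287, 787, 883 and 837 with 10 mM, again apart, with replicate 2 of the treated cultures closest to water. The falls were -3.07 ± 0.17 (limma adjusted p = 6.13e-16) and -2.54 ± 0.17 (adjusted p = 1.11e-13). At 0.5 mM the changes of Sult6b2 were -0.14 ± 0.17 and -0.08 ± 0.17, neither of them called.

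Sult2a6, a hydroxysteroid and bile acid sulfotransferase, moved in opposite directions at 0.5 mM and 10 mM. At 24 h its signal was 6260, 5536, 4064, 7918 and 7169 in water, 9871, 9107, 9710, 8963 and 8501 with 0.5 mM, and 1477, 711, 653, 627 and 683 with 10 mM. No 2 of these 3 groups overlapped. The 48 h signals were 4804, 4492, 4919, 4152 and 5467 in water, 10974, 8564, 5812, 5939 and 6176 with 0.5 mM, and 1864, 2743, 1947, 1603 and 1804 with 10 mM, with the same order of groups. The changes at 10 mM were -2.92 ± 0.19 (adjusted p = 4.08e-14) at 24 h and -1.27 ± 0.19 (adjusted p = 1.9e-06) at 48 h, and the fall was smaller at 48 h (interaction 1.65 ± 0.27, adjusted p = 8.92e-05). At 0.5 mM they were 0.61 ± 0.19 at both times (adjusted p = 0.0199 and 0.0204). The call at 24 h was lost without water replicate 3 (0.47), one of the cultures with a high actin ratio, and the call at 48 h without 0.5 mM replicate 1 (0.46) or water replicate 4 (0.56).

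Sult2b1 sulfates cholesterol. In water at 24 h its signal was 562, 614, 540, 690 and 543, and with 10 mM it was 87, 190, 48, 286 and 287. In water at 48 h it was 658, 433, 635, 651 and 616, and with 10 mM 232, 255, 279, 156 and 408, so the groups were apart at both times though close at 48 h. It fell by 1.87 ± 0.29 on the log2 scale at 24 h (adjusted p = 2.44e-06) and by 1.17 ± 0.29 at 48 h (adjusted p = 0.00145), to a mean at 24 h that was under the level of the filter (7.39 on the log2 scale). A further probeset of Sult2b1 also fell, from means of 9.31 and 9.05 in water to 4.92 and 6.14 with 10 mM. Both treated means of that probeset are under the level of the filter, so its fitted changes (-4.39 ± 0.32 and -2.90 ± 0.32) give a direction and no reliable size.

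Sult1a1, the main phenol sulfotransferase of liver, fell by less. Its signal was 72500, 90309, 75543, 75912 and 95697 in water at 24 h and 44480, 43036, 42125, 43939 and 48161 with 10 mM, and the groups were apart. At 48 h the water cultures of Sult1a1 read 88606, 81762, 76132, 80728 and 77457 and those with 10 mM 49350, 61882, 44979, 44514 and 51041, again with no overlap. The changes were -0.88 ± 0.08 (adjusted p = 8.4e-11) and -0.69 ± 0.08 (adjusted p = 1.81e-08). Sult1b1, which sulfates thyroid hormones and phenols, changed by -1.07 ± 0.07 and -0.50 ± 0.07, and this fall of Sult1b1 was smaller at 48 h (interaction 0.57 ± 0.10, adjusted p = 0.000254). Sult1c2 changed by -1.37 ± 0.17 and -1.35 ± 0.17.

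Sult1c2a, a close relative of Sult1c2, was another member lower at the high dose and higher at the low one. Its signal was 1856, 1380, 1773, 1655 and 1641 in water at 24 h, 2389, 2206, 3058, 2145 and 2690 with 0.5 mM and 640, 644, 729, 547 and 892 with 10 mM. The 48 h values were 2627, 1421, 1711, 1988 and 2009 in water, 4862, 3447, 3926, 4837 and 4140 with 0.5 mM and 663, 969, 788, 663 and 969 with 10 mM. The low dose lay above water and the high dose below it in all cultures at both times. The changes were 0.58 ± 0.15 and 1.13 ± 0.15 at 0.5 mM (adjusted p = 0.00431 and 8.83e-07) and -1.26 ± 0.15 and -1.24 ± 0.15 at 10 mM (adjusted p = 1.17e-08 and 2.31e-08). Probes of Sult1c2 and Sult1c2a may share signal, because the genes are related.

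Sult1c3 rose at both doses. In water its signal was 463, 547, 435, 480 and 682 at 24 h and 516, 526, 831, 553 and 506 at 48 h. With 0.5 mM it was 1368, 1096, 1042, 1519 and 1513 at 24 h and 1351, 1161, 1523, 1272 and 1593 at 48 h, and with 10 mM 1407, 947, 970, 932 and 1299 at 24 h and 3128, 2876, 2364, 2556 and 2693 at 48 h. All treated cultures lay above all water cultures of their time. The changes were 1.30 ± 0.15 and 1.23 ± 0.15 at 0.5 mM and 1.06 ± 0.15 and 2.20 ± 0.15 at 10 mM (adjusted p from 1.55e-13 to 3.43e-07), and the rise at 10 mM was larger at 48 h (interaction 1.14 ± 0.21, adjusted p = 0.000365). Sult4a1, a sulfotransferase known mostly from brain, also rose at 10 mM. Its signal was 258, 394, 308, 225 and 386 in water at 24 h and 640, 478, 973, 781 and 846 with 10 mM, and at 48 h 663, 306, 364, 353 and 430 against 900, 783, 945, 798 and 795. The groups of Sult4a1 did not overlap at either time, and the changes were 1.19 ± 0.20 (adjusted p = 8.27e-06) and 1.02 ± 0.20 (adjusted p = 0.000103).

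Sult1e1, the estrogen sulfotransferase, was the member that changed sign between the times. At 24 h its signal was 6078, 6621, 3171, 7276 and 7020 in water and 2843, 2090, 2236, 1777 and 2154 with 10 mM. Signals at 48 h were 3047, 4160, 4636, 4294 and 5220 in water and 8248, 6788, 7272, 6607 and 8016 with 10 mM. The 10 mM cultures were all below water at 24 h and all above it at 48 h. Replicate 3 of water at 24 h, the low one, was the culture with the actin ratio of 2.76. The changes were -1.39 ± 0.17 (adjusted p = 4.53e-08) and 0.80 ± 0.17 (adjusted p = 0.000306), and they differed from each other (interaction 2.20 ± 0.25, adjusted p = 2.76e-07). Without that water culture, Sult1e1 was lower at 48 h than at 24 h in water (-0.68, called), while with it the change in water was -0.46 ± 0.17 (adjusted p = 0.102).

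**Figure D2:**
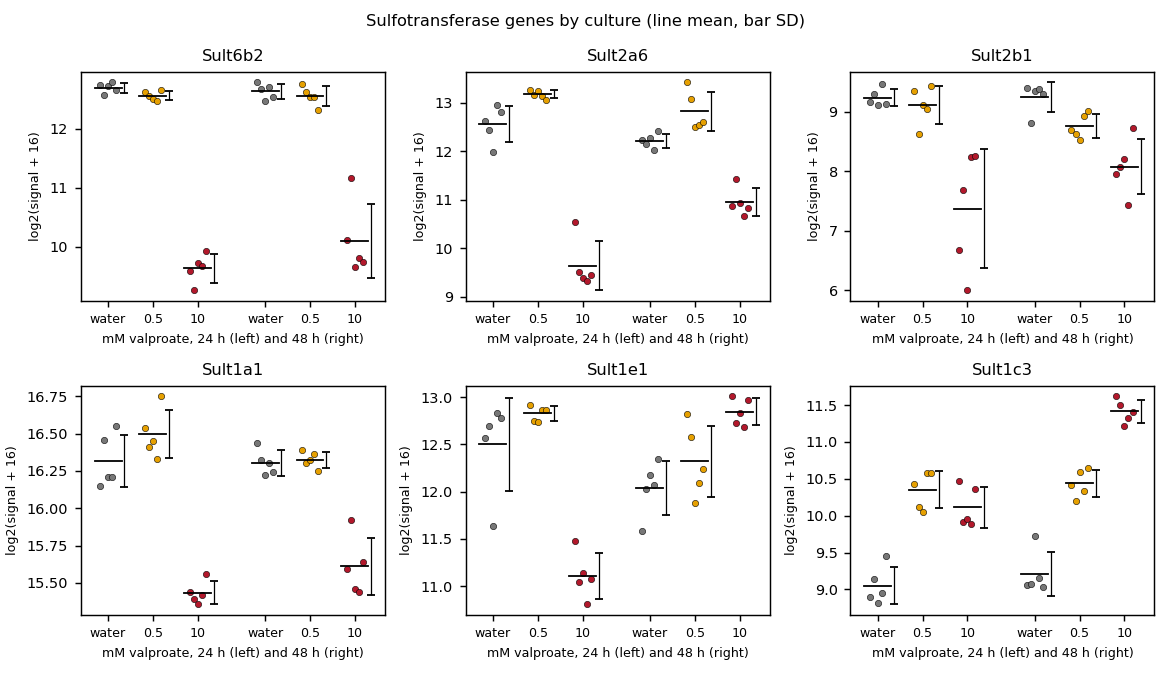
Log2(signal + 16) of 6 sulfotransferase genes in each culture, with the group mean (line) and SD (bar, n = 5), for water (grey), 0.5 mM (orange) and 10 mM (red) at 24 h and 48 h. Sult6b2, Sult2a6, Sult2b1 and Sult1a1 are lower with 10 mM at both times, Sult1e1 is lower at 24 h and higher at 48 h, and Sult1c3 is higher with both doses.

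Among glutathione transferases, falls at 10 mM were led by Gsta3, an alpha-class enzyme whose rodent form is known for conjugating aflatoxin epoxide. In water its signal was 18052, 18810, 18291, 18808 and 19494 at 24 h and 21729, 21989, 20314, 21154 and 20922 at 48 h. With 10 mM it was 4664, 3623, 4112, 3420 and 4471 at 24 h and 6016, 9778, 6346, 4970 and 6490 at 48 h. Treated and water cultures were far apart, and replicate 2 at 48 h was again the treated culture nearest to water. Gsta3 changed by -2.21 ± 0.11 (adjusted p = 2.78e-17) and -1.69 ± 0.11 (adjusted p = 2.94e-14). The fall was smaller at 48 h (interaction 0.52 ± 0.15, adjusted p = 0.0217), a call that was lost without replicate 4 of 10 mM at 24 h (0.46). At 0.5 mM its changes were 0.07 ± 0.11 and 0.00 ± 0.11, not called. Gsta1, another alpha-class gene, read 49677, 54569, 54579, 53001 and 61266 in water and 40484, 44418, 43348, 44104 and 41686 with 10 mM at 24 h, with no overlap. It fell by 0.35 ± 0.06 and 0.39 ± 0.06 at 10 mM, and Gsta4, which conjugates the lipid peroxidation product 4-hydroxynonenal, was not called at 24 h (0.11 ± 0.05, adjusted p = 0.0904) and rose by 0.31 ± 0.05 at 48 h.

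Mgst2, a membrane-bound enzyme that can also make leukotriene C4, read 37345, 41677, 38164, 41094 and 44580 in water at 24 h and 15611, 16471, 14858, 14718 and 15888 with 10 mM. The 48 h cultures read 41022, 38198, 35676, 36133 and 37201 in water and 11587, 19589, 10782, 10679 and 11019 with 10 mM. The groups did not overlap, and 4 of the treated cultures at 48 h lay close together with replicate 2 above them. The changes were -1.38 ± 0.10 (adjusted p = 9.57e-13) and -1.60 ± 0.10 (adjusted p = 7.47e-14). The other membrane-bound genes moved little. Mgst1 read 54134, 64571, 54183, 58578 and 71617 in water and 46947, 54180, 49971, 51534 and 48236 with 10 mM at 24 h, and the groups overlapped. Mgst1 changed by -0.27 ± 0.07 and -0.22 ± 0.07, and the second value was -0.04 after quantile normalization and -0.01 after centring on ribosomal protein genes, neither called. Mgst3 changed by -0.04 ± 0.06, not called, and -0.20 ± 0.06, and its sign turned at 24 h after quantile normalization (0.18), and at both times after centring on ribosomal protein genes (0.05 and 0.01).

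Gstz1 is the zeta-class enzyme that isomerises maleylacetoacetate in tyrosine breakdown. In water its signal was 12714, 12562, 13531, 14809 and 14022 at 24 h and 12134, 11966, 11319, 11431 and 11646 at 48 h, against 5583, 5822, 4699, 5015 and 6513 and 4506, 7088, 3878, 4376 and 5481 with 10 mM. It was below water in every treated culture, with changes of -1.30 ± 0.10 (adjusted p = 3.62e-12) and -1.24 ± 0.10 (adjusted p = 1.71e-11). Gstm4, of the mu class, fell in the same way, from 13312, 13307, 15533, 13879 and 14677 to 6241, 6200, 6345, 6174 and 7024 at 24 h and from 13220, 12143, 11317, 12155 and 11492 to 6101, 7769, 5679, 5522 and 5806 at 48 h. Its groups were apart, with changes of -1.14 ± 0.08 (adjusted p = 5.11e-14) and -0.97 ± 0.08 (adjusted p = 3.47e-12).

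The mu class was divided. Of its 6 genes tested, 3 were lower at both times (Gstm2, Gstm3 and Gstm4), and 1 was higher at both (Gstm7). The other 2, Gstm1 and Gstm5, were called at neither time. Mean log2 values of Gstm3 were 14.99 and 15.26 in water and 14.53 and 14.58 with 10 mM, at 24 h and 48 h. Gstm2 fell further at 48 h (-0.91 ± 0.09) than at 24 h (-0.38 ± 0.09), with an interaction of -0.53 ± 0.13 (adjusted p = 0.00472). Its signal was 49445, 53617, 48610, 54267 and 62512 in water and 39436, 41585, 39792, 41076 and 43402 with 10 mM at 24 h, and 67717, 57186, 52582, 59702 and 57192 against 31575, 40993, 26887, 26658 and 31975 at 48 h. The treated cultures lay below water at both times. Gstm1 read 68456, 86442, 80340, 76638 and 95083 in water and 66059, 81036, 72072, 74279 and 73415 with 10 mM at 24 h, and its groups overlapped. Gstm1 was not called at 10 mM, with -0.14 ± 0.08 (adjusted p = 0.125) and -0.09 ± 0.08 (adjusted p = 0.374), though without water replicate 1 the value at 24 h was -0.20 and called. Gstm7 rose, from 1767, 1667, 1926, 2352 and 2102 in water to 2690, 2849, 2650, 2616 and 2608 with 10 mM at 24 h, and from 1911, 2043, 1817, 1786 and 1883 to 4225, 3880, 4610, 4084 and 4560 at 48 h. The groups of Gstm7 did not overlap. The rises of 0.46 ± 0.08 (adjusted p = 2.61e-05) and 1.17 ± 0.08 (adjusted p = 5.26e-13) differed (interaction 0.71 ± 0.12, adjusted p = 9.87e-05). With 0.5 mM at 48 h it read 3482, 3044, 3135, 2645 and 2929, above all water cultures and below all 10 mM cultures.

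The theta class was divided as well. Gstt3 rose at every dose and time, from 3876, 3991, 4348, 4439 and 5324 in water at 24 h to 7707, 7571, 7322, 8406 and 8023 with 0.5 mM and 7272, 7220, 7663, 7336 and 7741 with 10 mM. Gstt3 at 48 h read 4931, 3810, 3867, 3847 and 3561 in water, 9292, 9700, 8832, 8659 and 9114 with 0.5 mM and 8799, 7889, 8734, 8103 and 9554 with 10 mM. All treated cultures lay above water, and the doses overlapped. The changes were 0.83 ± 0.08 and 1.19 ± 0.08 at 0.5 mM and 0.77 ± 0.08 and 1.11 ± 0.08 at 10 mM (adjusted p from 3.55e-13 to 2.5e-09). Gstt1, which acts on halogenated methanes, went opposite ways at the doses, rising by 0.37 ± 0.10 and 0.59 ± 0.10 at 0.5 mM (adjusted p = 0.00792 and 6.51e-05) and changing by -0.73 ± 0.10 and -0.58 ± 0.10 at 10 mM (adjusted p = 3.14e-07 and 1.92e-05). Its signal was 2510, 2194, 2621, 2403 and 2081 in water at 24 h, 3585, 3171, 3030, 2892 and 2648 with 0.5 mM and 1279, 1364, 1553, 1381 and 1481 with 10 mM. No 2 of these groups of Gstt1 overlapped at 24 h, and the same held against water at 48 h. Gstt2 changed by -0.94 ± 0.13 and -0.73 ± 0.13 at 10 mM, and its further probeset by -0.51 ± 0.28, not called, and -1.39 ± 0.28.

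Both pi-class genes were higher with 10 mM at 48 h. Gstp1, the placental form known as a marker of altered foci in rat liver, read 22389, 20418, 21604, 19890 and 21652 in water, 19210, 19117, 18354, 18435 and 19857 with 0.5 mM and 23221, 24776, 27086, 25506 and 24124 with 10 mM at 24 h. At 48 h it read 32268, 29180, 22429, 24468 and 20796 in water, 18198, 16612, 18749, 15715 and 15620 with 0.5 mM and 34464, 36177, 34033, 36403 and 35085 with 10 mM. The high dose lay above water and the low dose below it in all cultures at both times. The changes were 0.23 ± 0.08 (adjusted p = 0.0137) and 0.47 ± 0.08 (adjusted p = 1.07e-05) at 10 mM, and -0.16 ± 0.08 (adjusted p = 0.147, not called) and -0.59 ± 0.08 (adjusted p = 1.46e-06) at 0.5 mM. The value of -0.16 was called after quantile normalization (-0.24) and after centring on ribosomal protein genes (-0.22). The change at 0.5 mM was more negative at 48 h (interaction -0.43 ± 0.11, adjusted p = 0.00752).

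Gstp3 lost signal in water and kept it with 10 mM. Its signal in water was 763, 808, 809, 881 and 713 at 24 h and 217, 81, 119, 291 and 95 at 48 h, a change of -2.34 ± 0.27 over time (adjusted p = 4.43e-07) to a mean under the level of the filter. With 10 mM it was 1127, 1078, 1182, 1339 and 1115 at 24 h and 1574, 943, 1206, 1501 and 1330 at 48 h, so the treated cultures lay above water at both times. With 0.5 mM it was 1372, 1191, 1096, 1062 and 1126 at 24 h and 703, 161, 499, 563 and 559 at 48 h, and replicate 2 of the latter lay within the range of water. The changes against water at 48 h were 3.03 ± 0.27 at 10 mM (adjusted p = 6e-11) and 1.54 ± 0.27 at 0.5 mM (adjusted p = 7.41e-05). At 24 h both were 0.55 ± 0.27 and not called (adjusted p = 0.0956 and 0.139), although no values overlapped, and a fit of only the groups compared called both. The effect of 10 mM differed between the times (interaction 2.48 ± 0.38, adjusted p = 3.5e-05).

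**Figure D3:**
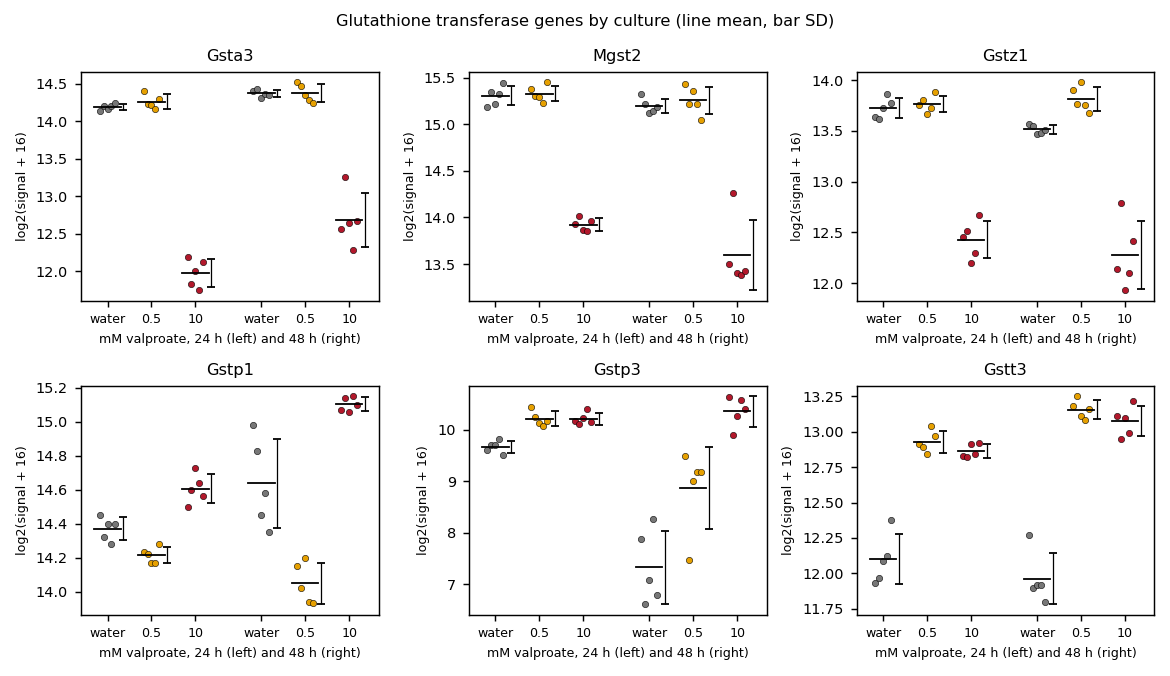
Log2(signal + 16) of 6 glutathione transferase genes in each culture, with the group mean (line) and SD (bar, n = 5), for water (grey), 0.5 mM (orange) and 10 mM (red) at 24 h and 48 h. Gsta3, Mgst2 and Gstz1 are lower with 10 mM at both times, Gstt3 is higher with both doses, Gstp1 is higher with 10 mM and lower with 0.5 mM, and Gstp3 drops in water between 24 h and 48 h.

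None of the 8 glucuronosyltransferase genes was called higher at 10 mM, except that Ugt2b10 was at 48 h (0.37) after centring on ribosomal protein genes. Ugt2b1, a major form of rat liver, read 46175, 55582, 46630, 51860 and 60545 in water at 24 h and 22166, 22567, 18449, 21042 and 23919 with 10 mM. Ugt2b1 at 48 h read 57813, 56559, 50316, 54880 and 54417 in water and 28601, 35751, 25689, 24746 and 27249 with 10 mM. The groups were apart, with changes of -1.27 ± 0.09 (adjusted p = 1.09e-13) and -0.96 ± 0.09 (adjusted p = 9.79e-11). The gene listed as Ugt2b read 40767, 47278, 42679, 43777 and 51675 against 32014, 36787, 32066, 31915 and 34260 at 24 h, and 49328, 46397, 41956, 45095 and 45830 against 19572, 32371, 15544, 14043 and 20169 at 48 h. It lay below water in all treated cultures and further below at 48 h (-0.43 ± 0.12 and -1.23 ± 0.12, interaction -0.80 ± 0.18, adjusted p = 0.00248), though the call at 24 h was lost after quantile normalization (-0.21). Its further probeset changed by -1.81 ± 0.20 and -3.25 ± 0.20. Ugt2b genes are close in sequence, and probesets may share signal among them.

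Ugt2b10 changed at 24 h and not at 48 h. At 24 h it read 4691, 5491, 5086, 4712 and 4971 in water and 2826, 2165, 2199, 2445 and 2469 with 10 mM, and at 48 h 3663, 4968, 5255, 4357 and 5156 against 5345, 4727, 5515, 4974 and 5369. The groups were apart at 24 h and overlapped at 48 h. The changes were -1.04 ± 0.08 (adjusted p = 5.25e-12) and 0.16 ± 0.08 (adjusted p = 0.141), and they differed (interaction 1.20 ± 0.12, adjusted p = 2.86e-08). Its promoter window holds the HNF1 motif named above, at position 16 past the start on the other strand. Any part of that motif in these changes was not tested.

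Ugt2a1, which is known for glucuronidating odorants in the nose, read 1922, 1252, 1402, 2641 and 2884 in water at 24 h and 820, 855, 707, 636 and 867 with 10 mM. Ugt2a1 at 48 h read 2747, 3264, 3195, 2609 and 3325 in water, 2658, 2954, 1321, 1532 and 1941 with 0.5 mM and 863, 1275, 798, 885 and 987 with 10 mM. The 10 mM cultures were below water at both times, with changes of -1.29 ± 0.19 (adjusted p = 1.2e-06) and -1.65 ± 0.19 (adjusted p = 2.05e-08). At 0.5 mM and 48 h it changed by -0.60 ± 0.19 (adjusted p = 0.0244), and the lowest cultures there were replicates 3 and 4, those with actin ratios of 2.77 and 2.23. Without the 3 cultures of high ratio the value was -0.28 and not called, and the call was also lost without any one of 0.5 mM replicates 3 and 4 and water replicates 2, 3 and 5 (-0.58 to -0.45). Ugt2b35 changed by -0.39 ± 0.06 and -0.38 ± 0.06 at 10 mM and Ugt2b15, an androgen and bile acid form in its class, by -0.24 ± 0.08 and -0.22 ± 0.08. The values of Ugt2b15 were -0.01 and 0.00 after quantile normalization and not called. Ugt2b7 and Ugt2b34l1 were not called in either 10 mM comparison.

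Among acetyltransferases, relatives moved in opposite directions at 10 mM. Nat8, which acetylates cysteine conjugates in the last step of mercapturic acid synthesis, read 1237, 1296, 1318, 1224 and 1216 in water at 24 h, 2408, 2627, 2829, 2201 and 1822 with 0.5 mM and 365, 389, 396, 349 and 297 with 10 mM. Nat8 at 48 h read 1557, 1160, 897, 1253 and 713 in water, 2291, 1677, 2500, 2090 and 1957 with 0.5 mM and 502, 521, 455, 346 and 407 with 10 mM. The low dose lay above water and the high dose below it in all cultures at both times. Nat8 changed by 0.89 ± 0.15 and 0.94 ± 0.15 at 0.5 mM (adjusted p = 6.44e-05 and 3e-05) and by -1.77 ± 0.15 and -1.26 ± 0.15 at 10 mM (adjusted p = 2.35e-11 and 4.42e-08).

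Nat8b, a relative of Nat8, rose at both doses. It read 308, 249, 191, 191 and 266 in water, 461, 372, 353, 445 and 244 with 0.5 mM and 650, 737, 828, 698 and 719 with 10 mM at 24 h, and 276, 322, 180, 248 and 229, then 326, 399, 366, 350 and 344, then 490, 555, 595, 595 and 585 at 48 h. The 10 mM cultures lay above all others at each time. The changes at 10 mM were 1.55 ± 0.17 (adjusted p = 2.01e-09) and 1.14 ± 0.17 (adjusted p = 1.01e-06). At 0.5 mM they were 0.60 ± 0.17 (adjusted p = 0.00852), not called after quantile normalization (0.39), and 0.50 ± 0.17 (adjusted p = 0.0268), not called without 0.5 mM replicate 2 or 3 or without water replicate 3 or 5 (0.40 to 0.49). Both promoters hold the antioxidant response element core, at position -224 in Nat8 and at 15 on the other strand in Nat8b.

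Nat1 read 7895, 6778, 4326, 8503 and 8092 in water at 24 h and 3876, 3564, 4217, 3842 and 4772 with 10 mM. At 48 h it read 9732, 9882, 10224, 8951 and 10861 in water, 8009, 8217, 3447, 4706 and 5567 with 0.5 mM and 3818, 4899, 3812, 3853 and 4300 with 10 mM. The water culture that overlapped the treated ones at 24 h, replicate 3, and the lowest of 0.5 mM at 48 h, replicates 3 and 4, were the 3 with high actin ratios. Nat1 changed by -0.78 ± 0.17 (adjusted p = 0.000256) and -1.26 ± 0.17 (adjusted p = 2.35e-07) at 10 mM, and by -1.08 ± 0.12 and -1.18 ± 0.12 on a further probeset. At 0.5 mM and 48 h the change was -0.80 ± 0.17 (adjusted p = 0.000714), and -0.47, still called, without those 3 cultures. The probesets of Nat1 differed at 0.5 mM. The further one fell at both times, by 0.38 ± 0.12 at 24 h (adjusted p = 0.0179) and 0.43 ± 0.12 at 48 h (adjusted p = 0.00665), where the brighter one gave 0.03 ± 0.17 at 24 h, not called. The interaction of 0.5 mM was -0.82 ± 0.24 (adjusted p = 0.0158) on the brighter probeset and -0.06 ± 0.16 (adjusted p = 0.846) on the further one. Nat2 rose by 0.55 ± 0.16 with 10 mM at 24 h (adjusted p = 0.00411) and by 0.00 ± 0.16 at 48 h, not called (adjusted p = 0.986). The difference between these times was not called (interaction -0.55 ± 0.22, adjusted p = 0.121). Of the members named for acetylation of other substrates, Nat14 rose by 0.63 ± 0.18 at 48 h and Nat10 and Nat9 were not called at 10 mM.

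**Figure D4:**
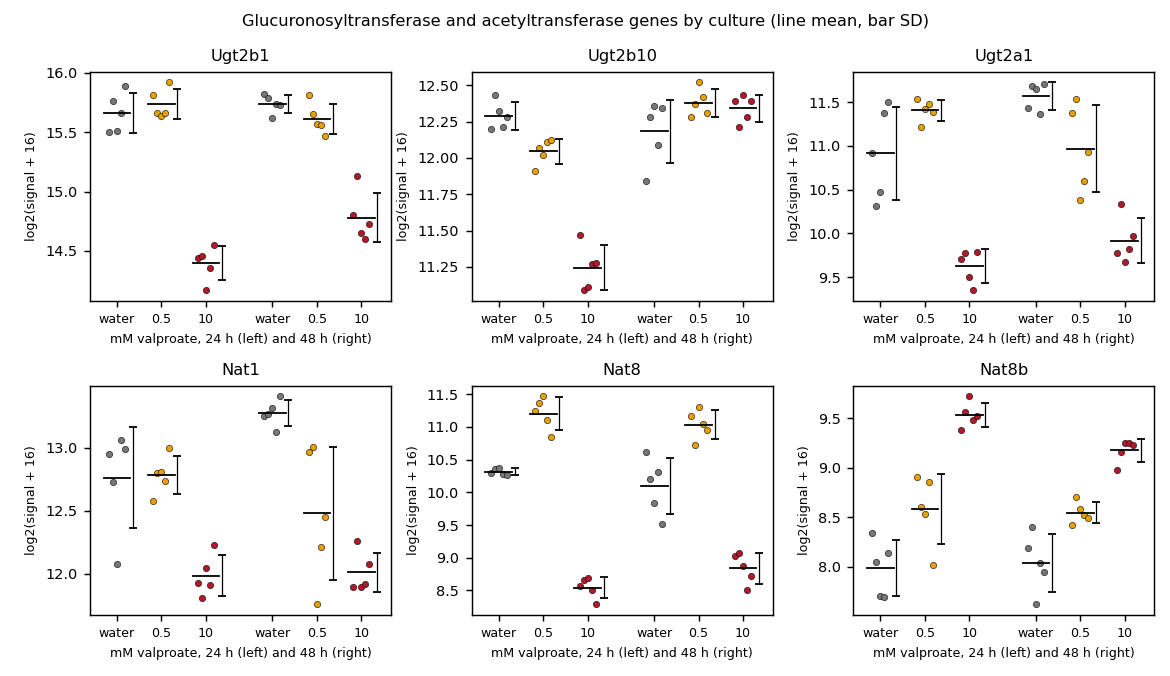
Log2(signal + 16) of 3 glucuronosyltransferase and 3 acetyltransferase genes in each culture, with the group mean (line) and SD (bar, n = 5), for water (grey), 0.5 mM (orange) and 10 mM (red) at 24 h and 48 h. Ugt2b10 is lower with 10 mM at 24 h and overlaps water at 48 h, while Nat8 is higher with 0.5 mM and lower with 10 mM and Nat8b is higher with 10 mM.

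Among the members that fell, replicate 2 of 10 mM at 48 h was often the treated culture nearest to water. It had the highest signal of the 5 treated cultures for 21 of the 26 members that fell at 48 h. This was noticed after the values were seen. It did not hold over all 50 members, where the median difference from water at 24 h was -0.28 in replicate 2 and -0.11 in replicate 5. Without replicate 2, 25 members were lower and 11 higher at 48 h. The actin ratio of replicate 2 was 1.28.

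The second comparison asked whether the low dose moved the same families. At 0.5 mM and 24 h, 19 of 50 members rose and 1 fell (Ugt2b10), with a median of 0.22, where 23.8% of all probesets were called, 11.5% higher and 12.3% lower. At 48 h, 12 rose and 5 fell with a median of 0.05, where 22.1% of all were called, 10.2% higher and 11.9% lower. The values of 13 members did not overlap with water at 24 h, and of 13 at 48 h, against 15.8% of all probesets at 24 h and 12.5% at 48 h. Among glutathione genes 10 rose and 0 fell at 24 h and 6 rose and 1 fell at 48 h. The counts were 2 and 1, then 1 and 1, for glucuronide, 4 and 0, then 3 and 0, for sulfate, and 3 and 0, then 2 and 3, for acetyl.

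Many of the rises at 24 h were small, and probesets of strong signal as a whole leaned upward there. Among the 1843 strong probesets named above, the low dose at 24 h gave 28.9% higher and 16.3% lower, with a median of 0.09. The 20 members among them had 9 higher and 0 lower and a median of 0.19. After quantile normalization 12 members rose and 1 fell at 24 h, with the median of all 50 at 0.07, and with the actin ratio as a covariate 12 rose and 1 fell. Gsta1 (0.18 ± 0.06), Mgst1 (0.20 ± 0.07) and Gstm2 (0.24 ± 0.09) were among the rises that quantile normalization lost, at -0.01, 0.01 and 0.04. Each was also lost on leaving out single cultures. Gsta1 was lost without 0.5 mM replicate 3 or 5 or water replicate 1 (0.14 to 0.16), Mgst1 without 0.5 mM replicate 1, 3 or 5 or water replicate 1, 3 or 4 (0.15 to 0.20), and Gstm2 without any of 0.5 mM replicates 1, 3, 4 and 5 and water replicates 1, 2, 3 and 4 (0.20 to 0.25).

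Rises at 0.5 mM and 24 h with values apart from water and kept after quantile normalization were those of Gsta4, Gstt1, Gstt3, Mgst3, Sult1c3, Sult1c2a, Sult2a6 and Nat8, among the genes named. Gsta4 read 17751, 17183, 17271, 18141 and 17884 in water and 27512, 24944, 25137, 24422 and 27039 with 0.5 mM, with no overlap. It rose by 0.55 ± 0.05 (adjusted p = 4.13e-09) and by 0.41 ± 0.05 at 48 h (adjusted p = 6.34e-07). The change at 48 h of Gstz1 was 0.30 ± 0.10 (adjusted p = 0.0349), and its call was lost without 0.5 mM replicate 1 or 3 or water replicate 3, 4 or 5 (0.26 to 0.30). Other members called at 0.5 mM and 24 h were Gstk1, the kappa-class enzyme (0.25 ± 0.07), Mgst3 (0.31 ± 0.06), Gstm7 (0.32 ± 0.08), Gstt2 (0.35 ± 0.13), Ugt2b15 (0.35 ± 0.08), Ugt2b35 (0.20 ± 0.06), Sult1b1 (0.27 ± 0.07) and Nat8f1 (0.67 ± 0.21). Quantile normalization lost those of Ugt2b15 (0.21), Ugt2b35 (0.04), Sult1b1 (0.06) and Nat8f1 (0.47), and centring on ribosomal protein genes those of Gstm7 (0.25), Gstt2 (0.28), Ugt2b35 (0.13) and Nat8f1 (0.60). Single cultures also decided some of them. Gstt2 was lost without any of 0.5 mM replicates 2, 3, 4 and 5 and water replicates 1, 2, 3 and 4 (0.28 to 0.37), Ugt2b35 without 0.5 mM replicate 5 or water replicate 1 or 3 (0.16 to 0.18), and Nat8f1 without 0.5 mM replicate 3 or water replicate 2 (0.57 to 0.61). The fall of Ugt2b10 at 24 h (-0.24 ± 0.08, adjusted p = 0.0359) was lost without 0.5 mM replicate 1, 2 or 3 or water replicate 2, 3 or 5 (-0.25 to -0.21). At 48 h Gstm7 rose by 0.68 ± 0.08 and Ugt2b34l1 by 0.40 ± 0.15, the latter lost without any one of 8 cultures (0.30 to 0.43). The falls at 48 h were those of Gstp1, Ugt2a1 and Nat1, given above, and of Nat9 (-0.51 ± 0.12) and Nat2 (-0.56 ± 0.16), the last of which was lost without 0.5 mM replicate 3 (-0.41). Replicates 3 and 4 of 0.5 mM at 48 h, which enter all these falls, had high actin ratios of 2.77 and 2.23.

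Centred on ribosomal protein genes, which moves the median of all probesets at 48 h to 0.18, 24 members were higher and 3 lower at 48 h.

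Members that changed in opposite directions at the doses were compared directly. At 24 h, 33 members were lower and 5 higher with 10 mM than with 0.5 mM, where 51% of all probesets were called, 28.2% higher and 22.9% lower. The values of 33 members did not overlap between the doses at 24 h, against 42.6% of all probesets. At 48 h, 28 were lower and 10 higher, where 46.2% were called, 26.5% higher and 19.7% lower, and 30 did not overlap, against 33.2%. All 8 glucuronosyltransferases were lower with 10 mM than with 0.5 mM at 24 h, by 0.41 to 1.78 log2 units (fitted values from -1.78 to -0.41), though Ugt2b34l1 (-0.41 ± 0.15, adjusted p = 0.0216) was not called without 0.5 mM replicate 5 or 10 mM replicate 2, 3 or 5 (-0.37 to -0.34). Nat8 differed between the doses by -2.66 ± 0.15 and -2.20 ± 0.15, Gstt1 by -1.11 ± 0.10 and -1.17 ± 0.10, and Gstp1 the other way by 0.39 ± 0.08 and 1.06 ± 0.08.

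**Figure D5:**
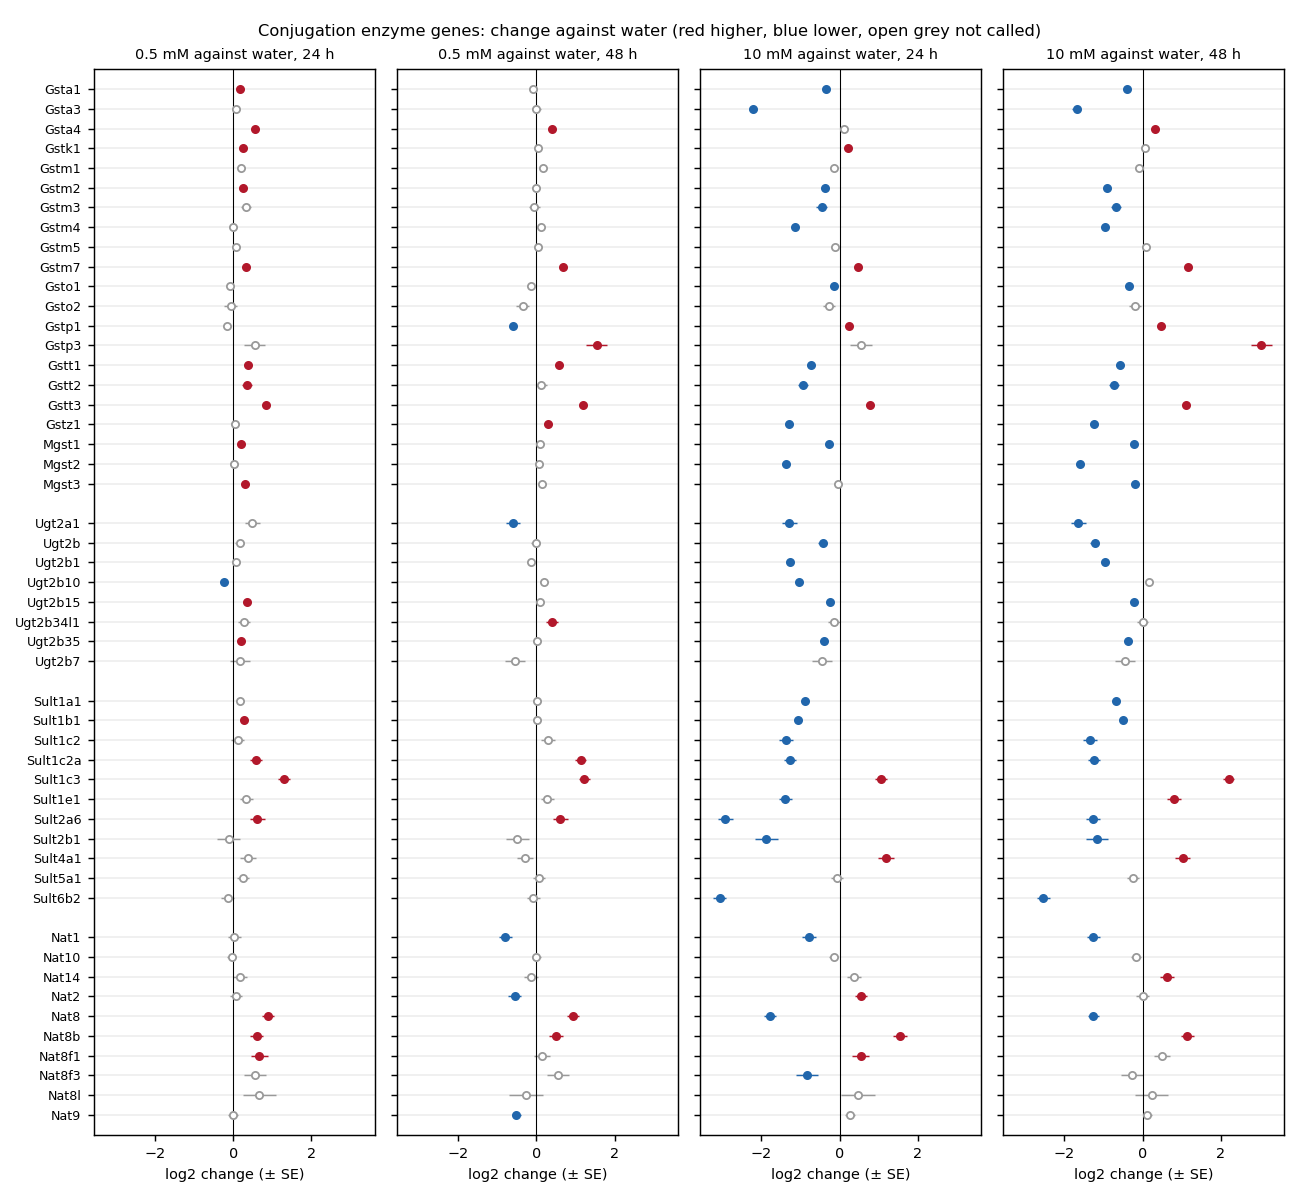
Change against water on the log2(signal + 16) scale with its standard error for the 50 members tested, in 4 comparisons, grouped from top to bottom as glutathione, glucuronide, sulfate and acetyl. Red points are called higher, blue points called lower and open points not called. At 24 h, 19 points are red and 1 blue at 0.5 mM, and 9 are red and 28 blue at 10 mM.

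Time in water alone moved few members. At 48 h against 24 h, 5 were higher and 1 lower (Gstp3), where 7.77% of all probesets were called, 3.93% higher and 3.84% lower. The values of 7 did not overlap, against 7.92% of all probesets. The rises were those of Gsta4 (0.19 ± 0.05), Gstp1 (0.27 ± 0.08), Ugt2a1 (0.65 ± 0.19), Sult1c2 (0.54 ± 0.17) and Nat2 (0.60 ± 0.16), and each lost its call without some single water culture. Without water at 24 h replicate 2 the count was 2, without water at 48 h replicate 2 it was 2, and without water at 24 h replicate 3 it was 3. The effect of 10 mM differed between the times for 11 members, 9 toward higher values at 48 h and 2 toward lower, where 10.5% of all probesets were called, 5.8% higher and 4.71% lower. The effect of 0.5 mM differed for 9, with 3 higher and 6 lower, where 19.5% were called, 9.83% higher and 9.66% lower. Centred on ribosomal protein genes, that last split was 9 higher and 1 lower. Without the 3 cultures of high actin ratio, 3 members were called.

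Genes that supply the conjugated groups were counted by list, to be read beside the 48.2% of all probesets called at 24 h and the 41.8% called at 48 h. Of 10 tested genes of glutathione supply, 9 fell and 0 rose at 10 mM and 24 h, and 7 fell and 0 rose at 48 h. They included Gss, glutathione synthetase (-1.17 ± 0.08 at 24 h), Slc7a11, the cystine transporter (-1.15 ± 0.11), and Ggt1, which cleaves glutathione outside the cell (-1.14 ± 0.17). Of 5 genes around UDP-glucuronic acid, 3 fell and 1 rose at 24 h and 4 fell and 0 rose at 48 h, among them Ugdh, the enzyme that makes it (-1.21 ± 0.06 at 24 h). Of 8 genes of PAPS supply and sulfate return, 2 fell and 2 rose at 24 h, a share near that of all probesets, and 4 fell and 2 rose at 48 h. The sulfate transporter Slc26a1 fell by 2.93 ± 0.17 and the PAPS synthase Papss2 by 1.40 ± 0.09, while Slc35b2, which carries PAPS into the Golgi, rose by 1.15 ± 0.11 and the PAPS synthase Papss1 by 0.57 ± 0.13, all at 24 h.

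Lists of other conjugation routes, export and hydrolysis were counted in the same way. Of 6 tested genes of methyl and glycine conjugation, 3 fell and 2 rose at 24 h and 3 fell and 1 rose at 48 h, with Baat, which joins bile acids to amino acids, at -3.45 ± 0.17, Glyat, which joins acyl groups to glycine, at -2.58 ± 0.12 and As3mt, an arsenic methyltransferase, at -1.59 ± 0.09 at 24 h. Of 6 exporters, 2 fell and 2 rose at 24 h, and 2 fell and 1 rose at 48 h, a share near that of all probesets. The conjugate pumps Abcc3 (-2.84 ± 0.17) and Abcc2 (-1.82 ± 0.13) fell at 24 h, and the efflux pumps Abcb1a (0.84 ± 0.14) and Abcg2 (0.47 ± 0.06) rose. Of 8 hydrolases, 6 fell and 0 rose at 24 h and 3 fell and 2 rose at 48 h, with the carboxylesterase Ces1d at -2.18 at 24 h. At 0.5 mM and 24 h, 5 of these 8 rose and 0 fell, where 23.8% of all probesets were called, 11.5% higher and 12.3% lower. Most other lists did not rise there. Of 6 exporters 4 fell and 0 rose, and of 6 methyl and glycine genes 2 fell and 0 rose. For PAPS supply 3 of 8 fell and 0 rose, and for glutathione supply 4 of 10 fell and 1 rose. Around UDP-glucuronic acid 2 of 5 rose and 1 fell. In the lists named next, 7 of 11 Nrf2 genes fell and 2 rose, and of 8 receptors and factors 1 fell and 1 rose.

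Genes around Nrf2 and nuclear receptors were counted in the same way, and their part in the changes of the members was not tested. Of 11 partners and targets of Nrf2, 8 fell and 1 rose at 10 mM and 24 h, and 6 fell and 3 rose at 48 h. They included the glutathione peroxidase Gpx2 (-1.87 at 24 h), the haem oxygenase Hmox1 (-1.04) and Keap1, which holds Nrf2 in check (-0.95). Of 8 nuclear receptors and liver factors tested, 6 fell and 0 rose at 24 h, and 4 fell and 2 rose at 48 h. At 24 h Nr1h3, the receptor LXRα, changed by -3.10, Nr1i3 (CAR) by -1.76 and Nr1i2 (PXR) by -1.24, and at 48 h by -1.99, -1.16 and -0.70.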

How the data were processed

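RNA of each of 30 cultures went onto 1 array, per the labels' protocols. The authors made the deposited signal intensity with MAS5, per the submitters' processing notes. Its settings were not known here. Each array's mean signal, trimmed by 2%, was 1500.5 to 1500.7. This shared scaling was kept, and it would hide a change common to most genes. Of 31099 probesets, 57 were controls, 20826 had 1 gene symbol, 436 had several and 9780 had none. Probesets with several symbols named no gene, which left out 4 that matched the symbol rule. RefSeq's gene table held 55 of the 56 members.

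Values became log2(signal + 16), a scale that understates changes of dim probesets. The filter took the 21729 probesets whose mean reached the 30th percentile, 7.39. A gene was read from its brightest probeset. One limma 3.58.1 model (R 4.3.3; lmFit and eBayes with trend) held all 6 groups and left 24 residual degrees of freedom. Tests were two-sided with Benjamini-Hochberg adjustment, and the script was tested on simulated data. Plots came from matplotlib 3.10.9 in Python 3.11.15.

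Values per culture were given for up to 4 called members per family and direction with the largest change at 10 mM (at least 0.5, with no overlap) and for the brightest in water. Members called at 0.5 mM, in an interaction or over time, and 10 fixed genes, were also named. Values per culture of Gstp1, Gstt1, Gsta4 and Sult1c2a were added after they were seen. The members and gene lists were chosen with earlier results of these data known. Families are described by counts and medians without a test. The alternatives changed the pseudocount (1 or 64), the normalization (quantile, or centred on ribosomal protein genes), the filter, the trend, the groups fitted, the array weights, the probeset per gene and the call (a fold minimum of 2). Others added a block by running number or the actin ratio as a covariate, or left out the cultures with a ratio above 2 or each culture in turn.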

Additional observations from a re-analysis of the deposited data

Results flagged for a closer look

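In 25 genes with values per culture, each of 150 groups of 5 was checked for a culture far from the others by Dixon's test, and 9 were found. Chance flags about 1 in 20 groups. The values, as log2(signal + 16), were 12.78 for Gstm4 in 10 mM at 24 h replicate 5, 12.93 for Gstm4 and 14.26 for Mgst2 in 10 mM at 48 h replicate 2, and 7.46 for Gstp3 in 0.5 mM at 48 h replicate 2. In water they were 12.27 for Gstt3 at 48 h replicate 1, 9.73 for Sult1c3 at 48 h replicate 3, 8.81 for Sult2b1 at 48 h replicate 2 and 11.64 for Sult1e1 at 24 h replicate 3, and in 10 mM at 24 h replicate 1 the value of Sult2a6 was 10.54.

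The effect of 10 mM differed between 48 h and 24 h by the interaction test in 10 of these genes. It was more positive at 48 h for Gsta3 (0.52), Gstm7 (0.71), Gstp3 (2.48), Gstt3 (0.34), Ugt2b10 (1.20), Sult1c3 (1.14), Sult1e1 (2.20) and Sult2a6 (1.65), and more negative for Gstm2 (-0.53) and Ugt2b (-0.80). That of Gstt3 was not called without any one of 14 cultures (0.27 to 0.35). The effect of 0.5 mM differed for Gstm7 (0.36), Gstt3 (0.36), Ugt2b10 (0.44), Gsta1 (-0.25), Ugt2a1 (-1.09) and Nat1 (-0.82). The calls of Gsta1 (-0.24 to -0.22) and Gstm7 (0.30 to 0.35) were each lost without any one of 4 cultures. With the actin ratio as a covariate, most calls of this 0.5 mM interaction were lost, as counted below. The values of Ugt2a1 and Nat1 with that covariate were -0.38 and -0.07 and not called. A further probeset of Nat1 gave -0.06 in the main fit.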

How the results depend on the processing

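Counts of members called out of 50 kept within 1.5 times of the reported ones except as follows. With a fold minimum of 2 the counts were 18 at 10 mM and 24 h, 18 at 48 h, 1 at 0.5 mM and 24 h, 4 at 48 h, 5 and 1 for the interactions of 10 mM and 0.5 mM, 18 and 15 between the doses at 24 h and 48 h, and 1 over time in water. At 0.5 mM and 24 h the count of 20 became 13 after quantile normalization, 13 after centring on ribosomal protein genes and 13 with the actin ratio as a covariate, and at 48 h the count of 17 became 27 after that centring. The interaction of 0.5 mM (9 called) gave 5 from only the groups compared, 1 with the actin covariate and 3 without the cultures of high actin ratio. Over time in water (6 called) the centring gave 2, both lower, and no trend gave 3. The cause was not tested. Leaving out 1 culture gave 35 to 38 and 35 to 37 at 10 mM, 14 to 22 and 13 to 17 at 0.5 mM, 9 to 14 and 6 to 12 for the interactions, 35 to 38 and 36 to 39 between the doses, and 2 to 6 over time. With a replicate block for each run of 6 running numbers the counts were 38 and 36 at 10 mM, 20 and 17 at 0.5 mM, 11 and 12 for the interactions, 37 and 39 between the doses and 7 over time. Among the results of 40 named genes, these turned their sign where the reported or the alternative value was called: Mgst3 at 10 mM and 24 h (0.18, quantile) and 48 h (0.01, ribosomal centring), Ugt2b15 at 10 mM and 48 h (0.00, quantile), Gsta1 at 0.5 mM and 24 h (-0.01, quantile), Nat1 at 0.5 mM and 24 h (-0.31, actin covariate), and in the 0.5 mM interaction Gsta1 (0.00, ribosomal centring) and Gstm1 (0.13, quantile, and 0.23, ribosomal centring). Of 198 called results, 32 lost the call without some culture, and 21 others gained one.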
